A study of Mus musculus with 32 samples.

Results

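The 43 genes described here act mostly in DNA double-strand break repair and its checkpoints, with some in single-strand break, excision, crosslink and translesion repair. They were chosen by name, as the genes whose symbol stands in the gene column of the array's non-control probes, and their measured values played no part in the rule. They are covered by 58 of the 39429 non-control probes on the array, and 26 of them passed the detection filter and were tested among 15159 genes. The samples were whole blood of 32 male C57BL/6 mice, 1 array per mouse, with individual mice as replicates, drawn 24 h after X-rays or a sham exposure. The irradiated groups were wild-type (WT) mice at 8 Gy (n = 5), Atm-/- mice at 4 Gy (n = 6) and Scid mice at 3 Gy (n = 5), and the sham groups at 0 Gy were WT (n = 6), Atm-/- (n = 5) and Scid (n = 5). The dose was, per the series design, the one lethal to a set share of each genotype within a month, so genotype and dose change together and cannot be told apart. Blood came from the heart into PAXgene tubes, which fix RNA at collection, and globin transcripts were depleted before labelling with Cy3. A sample of whole blood mixes many cell types, so fewer cells of a type and less RNA per cell cannot be told apart in any value below.

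A double-strand break is first bound either by the Ku heterodimer, which recruits the DNA-dependent protein kinase DNA-PKcs for non-homologous end joining, or by the MRE11-RAD50-NBS1 complex, which activates the kinase ATM. ATM phosphorylates the histone variant H2AX, and MDC1, the ubiquitin ligases RNF8 and RNF168 and the adaptor 53BP1 then gather on the chromatin around the break. Ends that are cut back to single strands are coated by RPA, which brings in ATR with ATRIP and leads to homologous recombination through BRCA1, BRCA2 and their partners, mostly in dividing cells. Much of this pathway is controlled by modification of proteins that are already present. The Atm-/- mice lack the ATM kinase, and the Scid mutation truncates DNA-PKcs, the product of Prkdc, so both genotypes touch members of the list.

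Levels are given as the log2 processed signal of a probe minus its own array's 75th percentile over the 5831 probes well above background on all 32 arrays, so a level of 0 means as bright as that percentile. Arrays differed in brightness. Between 45.75 and 58.63% of probes were well above background in WT mice at 8 Gy, against 28.02 to 53.28% in WT mice at 0 Gy. The shares were 20.02 to 48.1% in Atm-/- mice at 4 Gy, against 36.57 to 43.38% in Atm-/- mice at 0 Gy, and 32.5 to 43.19% in Scid mice at 3 Gy, against 24.99 to 47.68% in Scid mice at 0 Gy. Across all 15159 genes the median log2 change after irradiation was 0.41 in WT, 0.10 in Atm-/- and 0.20 in Scid mice, and changes of single genes are to be read against these shifts. The 4 arrays named in earlier results as bright in liver transcripts were WT 8 Gy replicates 1 and 2, WT 0 Gy replicate 5 and Atm-/- 4 Gy replicate 3. The array of Scid 0 Gy replicate 5 had the smallest share of probes above background in its group, 24.99%, and the Rnf168 and Xrcc6 values of Scid mice, which rest on it, are given with and without it. The platelet list was detected on every array at 10 of 10 genes. Of 12 T cell genes 6 to 9 were detected on Scid 3 Gy arrays and 6 to 12 on Scid 0 Gy arrays, against 7 to 12 on WT 0 Gy arrays. Of 12 B cell genes 3 to 7 were detected on Scid 3 Gy arrays and 3 to 12 on Scid 0 Gy arrays, against 3 to 12 on WT 0 Gy arrays.

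Many repair genes were dim in blood, as were many probes of the whole array. Of the member probes 30 of 58 passed the filter, against 18367 of 39429 non-control probes. By group, the median share of members detected per array ran from 32.56% (Scid 0 Gy) to 69.77% (WT 8 Gy). The median shares of all probes in those groups were 35.57% and 51.23%, with a member counted as detected through any of its probes. Only Xrcc1, the scaffold of single-strand break repair, was well above background on all 32 arrays, 22 members including Xrcc1 were so on 16 or more arrays, 18 on 1 to 15, and 3 on none. The 3 without detection were Brca1 (the recombination and checkpoint tumour suppressor), Fancd2 (the central switch of the Fanconi crosslink repair pathway) and Polh (a translesion polymerase). Recombination genes other than Rbbp8, Rpa1, Blm and Wrn did not pass the filter: Brca1, Brca2, Palb2, Rad52, Rad54l, Xrcc2 and Xrcc3 were each detected on at most 9 arrays. All 5 chromatin signalling members passed, as did 9 of 11 genes of end joining and single-strand repair, 5 of 9 sensors and kinases, 3 of 4 excision and translesion genes, and none of the 3 Fanconi genes. The other genes left out were Atm, the checkpoint kinase Chek2, Mre11a and Nbn of the break-sensing complex, Prkdc, the end joining ligase Lig4, the Fanconi genes Fanca, Fancc and Fancd2, and Polh.

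**Figure D1:**
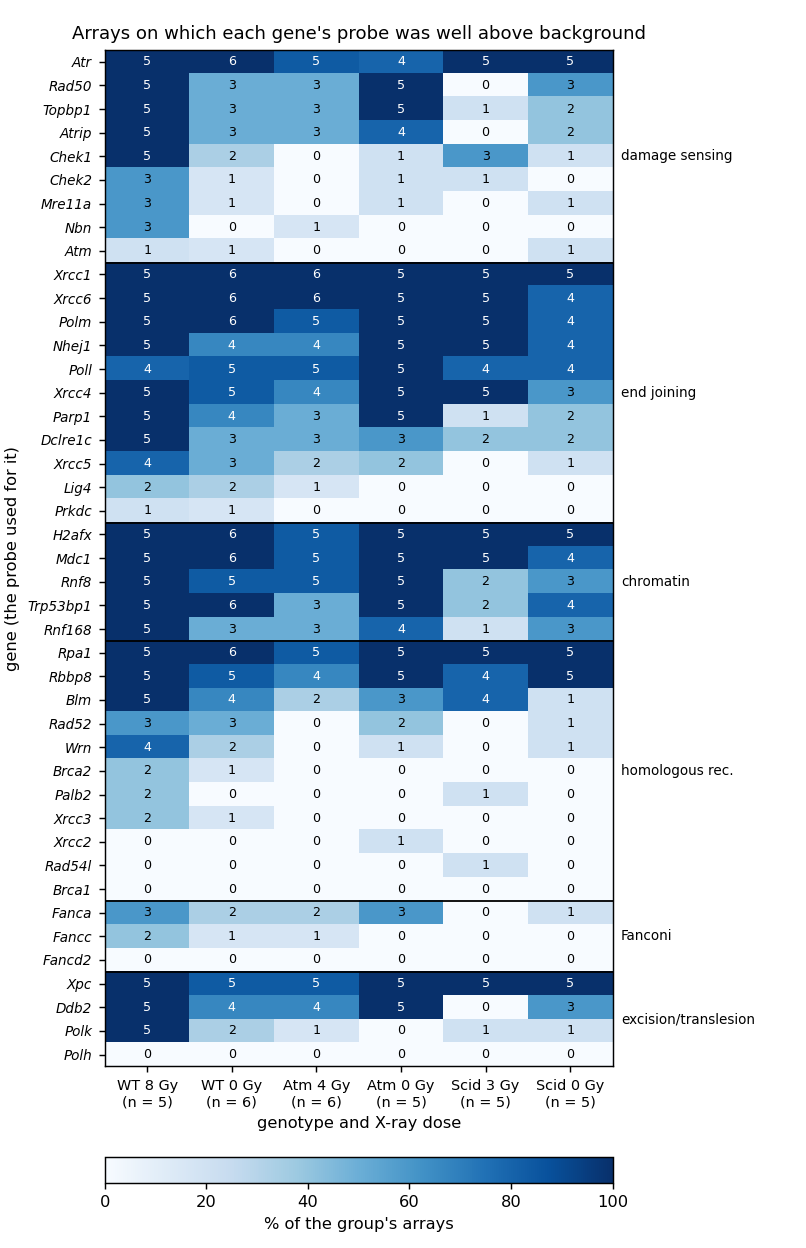
Number of arrays in each of the 6 groups on which the probe used for each of the 43 genes was well above background. Rows are genes ordered by role, columns are groups with their n, and the colour is the % of the group's arrays. Among the recombination and Fanconi genes Rpa1, Rbbp8 and Blm were detected on 31, 28 and 19 arrays and the others on at most 11, and the column of WT 8 Gy is the fullest.

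Brighter arrays tended to show more of the members. On WT 8 Gy arrays 25 to 37 of the 43 members were detected (median 30), against 8 to 34 on WT 0 Gy arrays (median 22). On Atm-/- 4 Gy arrays 3 to 25 were detected (median 17.5), against 18 to 27 on Atm-/- 0 Gy arrays (median 23). On Scid 3 Gy arrays 13 to 21 were detected (median 16), against 8 to 29 on Scid 0 Gy arrays (median 14). The counts of the irradiated and sham groups overlapped in every genotype. The order was not strict, since among Atm-/- 0 Gy arrays the one at 43.38% of probes had 23 members and the one at 41.57% had 27. A probe that is not detected reads the array's background: undetected Brca1 lay between -11.5 and -9.73 in WT mice at 8 Gy, against -10.6 and -8.40 in WT mice at 0 Gy, so the group with the brighter arrays read lower.

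**Figure D2:**
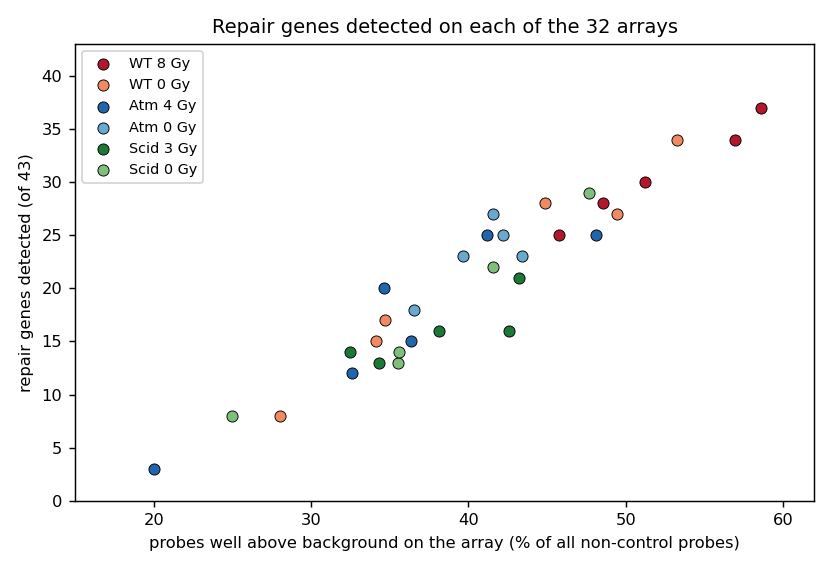
Repair genes detected on each array (vertical axis, of 43) against the % of all non-control probes well above background on it (horizontal axis). Each of the 32 points is 1 mouse, coloured by group. The points rise with scatter, from 3 genes at 20.02% to 37 genes at 58.63%.

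The genes that name the genotypes could not serve as a check of the labels. Atm, the apical kinase of the break response, has 2 probes, both on chromosome 9, minus strand, in the mm9 coordinates of the file headers. Prkdc, the catalytic subunit of the DNA-dependent protein kinase, has 1 probe whose 60 bases span 2606 bases of chromosome 16, plus strand, and so cross a splice junction. The 10-spot probe of Atm (chr9:53256167-53256226) was well above background on 0 of 32 arrays and that of Prkdc (chr16:15839317-15841922) on 2, and their sequences are shown because they define which stretch of each transcript went unseen:
Atm probe: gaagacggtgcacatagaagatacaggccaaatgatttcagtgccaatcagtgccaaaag
Prkdc probe: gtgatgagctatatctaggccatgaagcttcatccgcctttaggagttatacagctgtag
The other Atm probe was above background on 3 arrays, none of them from Atm-/- mice. It read -9.47, -9.01, -9.46, -8.91 and -9.06 in Atm-/- mice at 0 Gy, against a range of -9.52 to -7.55 in WT mice at 0 Gy. The genotypes overlapped. The Prkdc probe read -9.23, -9.25, -9.39, -8.56 and -7.84 in Scid mice at 0 Gy, against a range of -9.08 to -7.33 in WT mice at 0 Gy, which also overlapped. Neither gene was tested, and neither probe bears on whether the allele is present.

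In WT mice 2 of the 26 tested members rose after 8 Gy and none fell. They were Polk, which encodes DNA polymerase kappa, a translesion polymerase that copies past damaged bases, and Dclre1c, which encodes Artemis, the nuclease that opens hairpins and trims ends under DNA-PKcs during end joining. Both are shown with the probes that measured them, on mm9 chr13:97251653-97251712 (minus strand) and chr2:3371015-3371074 (plus strand):
Polk probe: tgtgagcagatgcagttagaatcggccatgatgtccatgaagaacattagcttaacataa
Dclre1c probe: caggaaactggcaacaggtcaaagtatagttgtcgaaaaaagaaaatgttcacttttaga
Of all genes tested 9.28% were called in this comparison, 5.19% as higher and 4.08% as lower (limma adjusted p under 0.05), a split that turned to 172 higher of 1092 calls when arrays were scaled to the 75th percentile of all probes. The 2 of 26 members are thus a share near the background and say nothing particular about the list. All 26 members passed the filter on WT 8 Gy arrays, and 5 of them, Polk, Dclre1c, Chek1, Xrcc5 and Wrn, on those arrays alone. A gene kept only through the group where it is bright was selected by that brightness, so the count of called members supports nothing further. With no filter all 43 members were tested and the same 2 were called, with adjusted p of 0.0126 for Polk and 0.021 for Dclre1c (limma). That count is to be read against the calls over all genes without the filter, given at the end, and it supports nothing further either. At an unadjusted p under 0.05 there were 6 of the 26 members, against 28.4% of all genes.

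Polk read -6.56, -7.03, -6.33, -6.02 and -6.22 in WT mice at 8 Gy, against -7.46, -7.31, -7.43, -9.11, -7.95 and -8.40 in WT mice at 0 Gy. Every irradiated mouse was above every sham mouse. The level was -6.43 ± 0.39 at 8 Gy (SD, n = 5) and -7.94 ± 0.70 at 0 Gy (SD, n = 6), and the log2 change was 1.51 (SE 0.34, limma adjusted p = 0.00374), which is 1.1 above the shift of all genes. The probe was well above background on 5 of 5 arrays at 8 Gy and on 2 of 6 at 0 Gy, so most sham values are background readings and the size of the change depends on them. The change was 0.84 and 2.07 on the 2 scan days that held both groups, and 0.87 and 2.08 on the 2 slides that did.

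Dclre1c read -5.62, -6.09, -5.63, -5.96 and -6.25 in WT mice at 8 Gy, against -7.11, -6.55, -7.97, -8.80, -6.26 and -8.07 in WT mice at 0 Gy. The groups did not overlap, although the lowest irradiated mouse and the highest sham mouse, replicate 5 in each group, were nearly level. The level was -5.91 ± 0.28 at 8 Gy (SD, n = 5) and -7.46 ± 0.98 at 0 Gy (SD, n = 6), a log2 change of 1.55 (SE 0.38, limma adjusted p = 0.00746), 1.14 above the shift of all genes. It was well above background on 5 of 5 arrays at 8 Gy and on 3 of 6 at 0 Gy, so here too the sham level is partly a background reading. The change was 1.59 and 1.64 on the 2 scan days that held both groups, and 2.36 and 2.72 on the 2 slides that did. A second probe of the gene that passed the filter gave 1.09 with an adjusted p of 0.0523. Groups that did not overlap, with the irradiated mice higher, made up 4.97% of all genes tested.

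**Figure D3:**
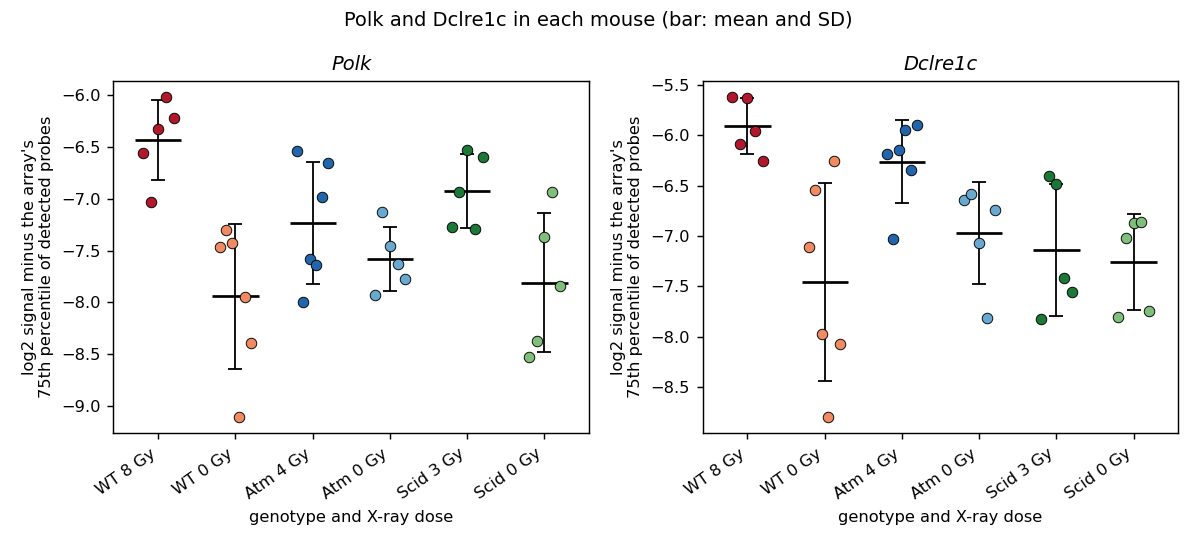
Levels of Polk (left) and Dclre1c (right) in each mouse, as log2 signal minus the array's 75th percentile of detected probes. Points are mice, horizontal bars are group means and whiskers are SD, and the groups run in pairs with the irradiated group left of its sham group. In both panels the 5 WT 8 Gy mice lie above all 6 WT 0 Gy mice, while the groups of the other genotypes overlap.

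Both calls held when any 1 array was left out, with log2 changes of 1.28 to 1.66 for Polk and 1.28 to 1.79 for Dclre1c, and without the 4 arrays bright in liver transcripts, with 1.75 for each gene. With normexp background correction both changed sign, to -1.01 for Polk and -0.94 for Dclre1c, neither of them called, while the median of all genes moved to -0.85. The Dclre1c call was also lost with the share of detected probes as a covariate (1.13, adjusted p = 0.0894), with array medians (1.46, adjusted p = 0.0554) and with quantile normalization (1.41, adjusted p = 0.07). The Polk call was lost in the authors' deposited log2 values (1.09, adjusted p = 0.0732).

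**Figure D4:**
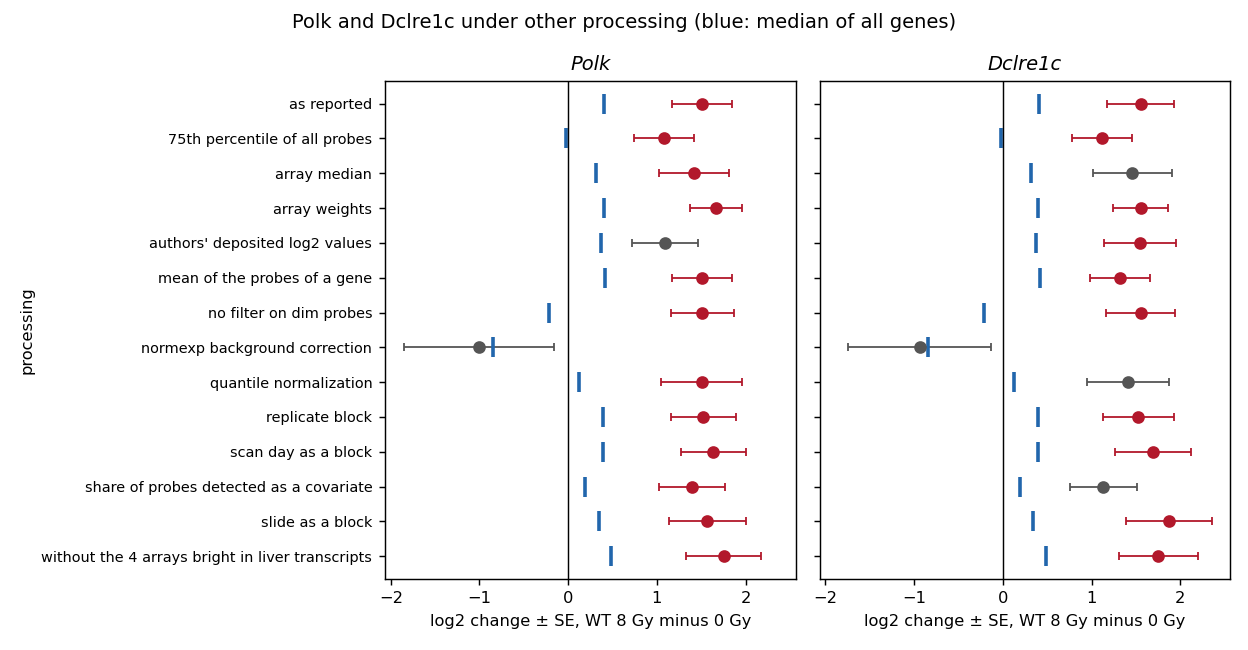
Log2 change of Polk (left) and Dclre1c (right) in WT mice, 8 Gy minus 0 Gy, as reported (top) and under other ways of processing. Points are estimates with their SE, red where the adjusted p is under 0.05 and grey otherwise, and the blue tick is the median of all genes under that processing. Apart from normexp background correction, the points lie between 1.08 and 1.87 and to the right of the blue ticks. WT 8 Gy replicate 5, alone on its slide and scan day, does not enter the fits with slide or scan day as a block.

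Cell type markers moved in the same comparison. Of 14 erythroid genes 9 fell in irradiated WT mice, with a median log2 change of -1.80 and a mean level per array of -4.93 to -3.90 at 8 Gy, against -2.82 to -1.59 at 0 Gy, and 11 to 13 of the 14 were detected per array at 8 Gy, against 14 at 0 Gy. Of 9 monocyte genes 4 rose, with a median of 1.77 and a mean level of -3.70 to -2.30 at 8 Gy, against -5.52 to -3.68 at 0 Gy, and 8 to 9 were detected per array at 8 Gy, against 3 to 9 at 0 Gy. Of 12 T cell genes 1 fell and of 11 B cell genes 1 fell. The part of blood composition in the rise of Polk and Dclre1c was not tested.

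The other 24 members were not called in WT mice. Atrip, Topbp1, Rad50, Xrcc5 and Rnf168 were well above background on 3 of 6 arrays at 0 Gy, and Chek1 and Wrn on 2. Their sham levels are partly background readings, and the sizes of their changes depend on them. Among the sensors and kinases, Atrip, the ATR partner, had a log2 change of 1.04, the checkpoint scaffold Topbp1 of 0.55, Rad50 of 0.36 and the kinase Chek1 of 0.35, with SEs of 0.37 to 0.59. Atr, the kinase of stalled forks, read -7.13, -5.82, -3.56, -4.43 and -4.97 at 8 Gy, against -6.18 to -3.89 at 0 Gy (median -5.08). Its log2 change was -0.08 (SE 0.65), and the irradiated group held both the highest and the lowest value.

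Of the end joining genes besides Dclre1c, Nhej1, which encodes the ligation factor XLF, had the next largest change. It was picked out after its values were seen. It read -4.80, -4.81, -5.45, -5.09 and -5.62 at 8 Gy, against -5.45, -5.33, -7.18, -6.63, -5.33 and -6.28 at 0 Gy, a log2 change of 0.88 (SE 0.33, limma adjusted p = 0.0823). The groups overlapped, and the call was made when WT 0 Gy replicate 2 or replicate 5 was left out. The estimate was 0.85 for the gap-filling polymerase Poll, with 1 irradiated array lacking a usable spot, 0.43 for its relative Polm, 0.32 and 0.11 for the Ku subunits Xrcc5 and Xrcc6, and 0.27 for Xrcc4, the ligase partner.

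Xrcc1 read -3.63, -3.82, -4.18, -3.77 and -4.20 in irradiated WT mice, against -4.98 to -3.47 in sham WT mice (median -4.22), with a log2 change of 0.27 (SE 0.27). All irradiated values lay inside the sham range. Parp1, which senses single-strand breaks, had the lowest estimate of all members, -0.68 (SE 0.70). It read -6.09, -6.21, -7.72, -6.71 and -6.94 at 8 Gy, against -8.38 to -3.53 at 0 Gy (median -5.64), and its spread among sham mice was wider than the difference. Without WT 0 Gy replicate 4, the brightest sham value, the estimate was -0.18. The Parp1 probe was well above background on 5 of 5 arrays at 8 Gy and 4 of 6 at 0 Gy.

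Among the chromatin signalling genes the ubiquitin ligases Rnf8 and Rnf168 had log2 changes of 1.20 (SE 0.56, limma adjusted p = 0.154) and 0.74, and the adaptor Mdc1 one of 0.13. H2afx, the gene of the histone variant H2AX, read -2.98, -3.04, -2.63, -2.64 and -2.56 at 8 Gy, against -3.46 to -2.43 at 0 Gy (median -3.04), and its log2 change was 0.25 (SE 0.36). Trp53bp1, the gene of 53BP1, had an estimate below 0. It read -7.01, -6.94, -6.73, -6.47 and -6.60 at 8 Gy, against -6.83 to -5.17 at 0 Gy (median -6.35), with 2 irradiated mice below every sham mouse and a log2 change of -0.63 (SE 0.39, adjusted p = 0.282).

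Of the 4 recombination members tested, the end resection factor Rbbp8 had a log2 change of 0.85 (SE 0.38, limma adjusted p = 0.144), the helicases Wrn and Blm of 0.66 and 0.35, and Rpa1, the large subunit of the single-strand binding protein, of 0.06. Without WT 8 Gy replicate 3 the values were 0.16 for Wrn and 0.17 for Blm. Rpa1 read -2.56, -2.36, -3.40, -2.70 and -2.69 at 8 Gy, against -4.53 to -1.71 at 0 Gy (median -2.56), so the sham range enclosed the irradiated one. Xpc, which recognises bulky lesions for nucleotide excision repair, read -4.86, -5.03, -4.35, -4.96 and -5.37 at 8 Gy, against -6.65 to -4.71 at 0 Gy (median -5.32). Its log2 change was 0.54 (SE 0.37), and that of Ddb2, a sensor of ultraviolet damage, was 0.25. Over the 26 members the median log2 change was 0.36, against 0.41 over all genes, with 23 estimates above 0 and 12 above the median of all genes. Scaled to the 75th percentile of all probes, 11 of the 26 changed sign and the median was -0.08, against -0.02 over all genes.

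**Figure D5:**
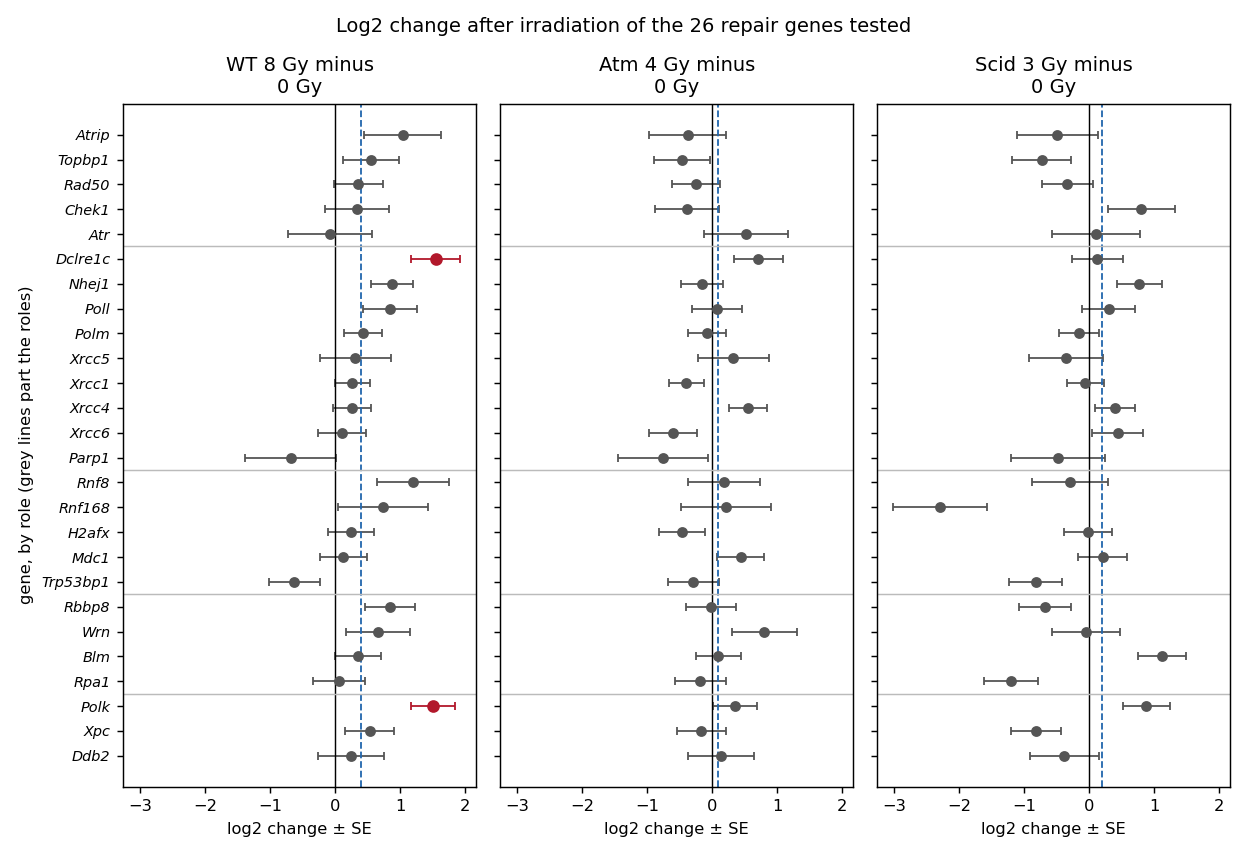
Log2 change after irradiation of the 26 repair genes that were tested, in WT (left), Atm-/- (middle, headed Atm) and Scid mice (right), with the irradiated group minus its 0 Gy group. Points are estimates with their SE, red where the limma adjusted p is under 0.05, and the blue dashed line is the median of all 15159 genes. In WT mice Polk and Dclre1c stand 1.1 and 1.14 above the dashed line, while Parp1 and Trp53bp1, neither called, lie at -1.09 and -1.04 relative to it. The Atm-/- points of Polk and Wrn compare background readings, and the Scid point of Polk mostly does. In Scid mice Rnf168 stands lowest at -2.29, with its probe well above background on 1 of 5 arrays at 3 Gy.

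In Atm-/- mice no member was called after 4 Gy, where 0.712% of all genes were (108 genes), and no member had an unadjusted p under 0.05, against 11.3% of all genes. The median log2 change of the 26 members was -0.05, against 0.10 over all genes, with 12 above 0 and 14 below. These include Chek1 and Wrn, whose probes used were well above background on 0 of 6 arrays at 4 Gy. Dclre1c read -7.03 at the lowest, -6.17 at the median and -5.90 at the highest in Atm-/- mice at 4 Gy, against -6.64, -6.58, -7.07, -7.81 and -6.74 in Atm-/- mice at 0 Gy. In this group 5 of 6 irradiated mice were above every sham mouse, and the log2 change was 0.71 (SE 0.38, limma adjusted p = 0.505). The second Dclre1c probe that passed the filter gave 0.155. Polk read -8.0, -7.28 and -6.54 as lowest, median and highest at 4 Gy, against -7.93, -7.13, -7.46, -7.63 and -7.77 at 0 Gy. Its groups overlapped. The probe was above background on 1 of 6 arrays at 4 Gy and 0 of 5 at 0 Gy, so these are background readings and no fold change is given.

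Xrcc6, which encodes the Ku70 subunit that binds broken ends, was the only member whose groups did not overlap in Atm-/- mice. It read -4.62, -4.12, -4.25, -4.63, -4.62 and -4.56 at 4 Gy, against -3.79, -3.72, -4.11, -3.74 and -3.98 at 0 Gy. All 6 irradiated mice were lower than all 5 sham mice, narrowly at the closest pair, and 0.884% of all genes separated in this way. The log2 change was -0.60 (SE 0.37) and was not called (limma adjusted p = 0.614). The model takes 1 spread from all 6 groups. It was -0.78 and -0.58 on the 2 scan days that held both groups.

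The remaining extremes in Atm-/- mice were wide. Wrn, a RecQ helicase, read -8.20, -7.38 and -5.19 as lowest, median and highest at 4 Gy, against -7.01, -7.63, -8.05, -8.80 and -8.71 at 0 Gy. The probe was well above background on 0 of 6 arrays at 4 Gy and on 1 of 5 at 0 Gy, so no fold change is given. Parp1 had a log2 change of -0.75 (SE 0.70), with -7.53, -6.40 and -4.47 at 4 Gy, against -5.40, -4.86, -6.60, -5.09 and -5.93 at 0 Gy, and the groups overlapped. The Parp1 probe was well above background on 3 of 6 arrays at 4 Gy and 5 of 5 at 0 Gy, so its irradiated level is partly a background reading. The kept probes of Atr differed in sign here, at 0.52 for the brighter and -0.30 for the dimmer.

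In Scid mice no member was called after 3 Gy either, where 1.19% of all genes were (180 genes). There, 6 of the 26 members had an unadjusted p under 0.05, against 11.8% of all genes. The median log2 change of the members was -0.11, against 0.20 over all genes, with 10 above 0 and 16 below. These include Atrip, Ddb2, Rad50, Wrn and Xrcc5, whose probes used were well above background on 0 of 5 arrays at 3 Gy. Polk read -7.27, -6.94, -6.53, -7.29 and -6.60 in Scid mice at 3 Gy, against -8.53, -8.38, -7.37, -6.94 and -7.84 in Scid mice at 0 Gy. The groups overlapped through 1 sham mouse, and the log2 change was 0.88 (SE 0.35, limma adjusted p = 0.281). The probe was well above background on 1 of 5 arrays in each group, so most of these values are background readings and the size of the change depends on them. For Dclre1c the log2 change was 0.12 (SE 0.39), while the second probe that passed the filter gave -0.41.

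Blm, the RecQ helicase that unwinds recombination intermediates, had the largest estimate in Scid mice. It read -5.70, -7.03, -5.80, -6.01 and -6.09 at 3 Gy, against -6.79, -7.89, -7.09, -6.85 and -7.63 at 0 Gy. Here 4 of 5 irradiated mice were above every sham mouse, with a log2 change of 1.12 (SE 0.37, limma adjusted p = 0.153), and the probe was above background on 4 of 5 arrays at 3 Gy and on 1 of 5 at 0 Gy. With array weights the change was 1.38 and called (limma adjusted p = 0.00471). The weights were uneven, at 4.17 for Scid 0 Gy replicate 2 and 0.16 for replicate 5. Many more of all genes were called in Scid mice with them than without, as given at the end.

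The lowest estimate was that of Rnf168, the ligase that extends ubiquitin marks around a break. It read -8.99, -8.92, -6.73, -8.09 and -8.29 at 3 Gy, against -7.77, -7.57, -6.88, -5.79 and -1.57 at 0 Gy. The groups overlapped at 1 irradiated mouse, and the value of -1.57 belongs to Scid 0 Gy replicate 5. The log2 change was -2.29 (SE 0.72, limma adjusted p = 0.134) and, without that replicate, -1.20 (adjusted p = 0.267). The Rnf168 probe was well above background on 1 of 5 arrays at 3 Gy and on 3 of 5 at 0 Gy, so most irradiated values are background readings. Rpa1 read -4.74, -4.74, -3.82, -2.79 and -4.25 at 3 Gy, against -3.43, -2.88, -2.99, -1.90 and -3.09 at 0 Gy. Here 4 of 5 irradiated mice were below every sham mouse, and the log2 change was -1.21 (SE 0.42, adjusted p = 0.183), while a second probe gave -0.81. With the share of detected probes as a covariate the Rpa1 change was -1.27 and called (limma adjusted p = 0.0491). The number of all genes called in Scid mice with that covariate is not given here.

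The 0 Gy groups of the genotypes were compared as well. No gene was called in Atm-/- against WT mice or in Scid against WT mice at 0 Gy (0% of 15159 genes in each, with 322 and 575 genes at an unadjusted p under 0.05). Of the members, none passed that unadjusted threshold in Atm-/- mice, against 2.12% of all genes, and 2 did in Scid mice, against 3.79%. Parp1 read -8.61, -8.30, -7.40, -5.38 and -8.11 in Scid mice at 0 Gy, against a range of -8.38 to -3.53 in WT mice at 0 Gy, with a log2 difference of -1.51 (SE 0.70, limma adjusted p = 0.883). Xrcc6 read -4.74, -4.29, -4.61, -3.97 and -6.68 in Scid mice at 0 Gy, against -4.83 to -3.15 in WT mice at 0 Gy, with a log2 difference of -0.83 (SE 0.37, limma adjusted p = 0.883). The value of -6.68 belongs to Scid 0 Gy replicate 5, where the probe was not well above background, and without that replicate the difference was -0.37. Without WT 0 Gy replicate 4 the Parp1 difference was -1.0. The Parp1 probe was well above background on 2 of 5 Scid 0 Gy arrays and 4 of 6 WT 0 Gy arrays. Most of its Scid values are thus background readings. Both pairs of groups overlapped. T cell genes had a median difference of -1.48 and B cell genes of -1.36 in the same comparison, none of them called, and their part in these values was not tested.

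Whether the response to irradiation differed between genotypes was tested directly, at different doses. No gene was called in either test (0% of 15159 genes, with 1465 genes at an unadjusted p under 0.05 for Atm-/- against WT and 1129 for Scid against WT). By that unadjusted p 2 of the 26 members passed in Atm-/- mice, against 9.66% of all genes, and 6 in Scid mice, against 7.45%. For Polk the difference from the WT response was -0.63 on the log2 scale in Scid mice (SE 0.49, limma adjusted p = 0.675). There the probe was well above background on 1 of 5 arrays in each group, so the Scid levels are mostly background readings. No difference is given for Atm-/- mice, where the Polk levels were background readings. For Dclre1c the differences were -0.84 (SE 0.53, adjusted p = 0.606) in Atm-/- mice and -1.43 (SE 0.54, adjusted p = 0.663) in Scid mice. The Dclre1c probe was well above background on 3 of 6 Atm-/- 4 Gy arrays and 3 of 5 Atm-/- 0 Gy arrays. In each Scid group it was so on 2 of 5 arrays, so these levels are in part background readings. So the calls of Polk and Dclre1c in WT mice were not shown to be particular to them. Over the 26 members the median difference from the WT response was -0.64 in Atm-/- mice and -0.61 in Scid mice, against -0.26 and -0.17 over all genes. These 2 comparisons share the WT mice, and so do the members' values in them. All 26 members passed the filter on WT 8 Gy arrays, 5 of them on those arrays alone. Brightness in that group was thus part of their selection, so these medians and counts support nothing further.

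Further repair genes were counted by role. Of 12 further end joining genes tested none was called in any irradiation comparison, and of 9 further Fanconi genes none. Of 21 further recombination genes 1 rose, in Atm-/- mice: Smc5, part of a chromosome-tethering complex (log2 change 2.09, SE 0.47, limma adjusted p = 0.03). In WT mice 1 of 17 further chromatin signalling genes, the ligase Rad18 (-1.11), and 1 of 11 checkpoint genes, the phosphatase Cdc25b (-3.13), fell. Against this, 14 of 18 well-known p53 target genes rose in WT mice, with a median log2 change of 2.02 and the cell cycle inhibitor Cdkn1a at 4.29. In Scid mice 4 of the 18 rose, with a median of 1.06, and in Atm-/- mice 0 of 18 were called, with a median of 0.89. Of 21 genes of dividing cells 7 fell in WT, 2 in Atm-/- and 2 in Scid mice.

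The stretches just upstream of the 2 genes that rose are shown because p53, which ATM activates, is the best known transcription factor of this response. They are the 250 bases before each RefSeq transcription start in GRCm38.p6, at chr13:96542580-96542829 and chr13:96519188-96519437 (both minus strand) for the 2 starts of Polk and at chr2:3423881-3424130 (plus strand) for Dclre1c, with a match to the p53 half-site in capitals:
Polk, first start: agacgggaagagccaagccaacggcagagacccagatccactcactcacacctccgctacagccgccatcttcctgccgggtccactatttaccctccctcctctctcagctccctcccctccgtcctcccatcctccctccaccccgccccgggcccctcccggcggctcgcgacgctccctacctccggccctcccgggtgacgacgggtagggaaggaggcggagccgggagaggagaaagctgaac
Polk, second start: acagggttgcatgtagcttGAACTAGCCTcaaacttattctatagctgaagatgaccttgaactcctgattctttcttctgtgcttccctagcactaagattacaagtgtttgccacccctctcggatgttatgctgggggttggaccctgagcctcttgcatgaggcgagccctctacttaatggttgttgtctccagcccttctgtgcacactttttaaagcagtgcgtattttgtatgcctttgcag
Dclre1c: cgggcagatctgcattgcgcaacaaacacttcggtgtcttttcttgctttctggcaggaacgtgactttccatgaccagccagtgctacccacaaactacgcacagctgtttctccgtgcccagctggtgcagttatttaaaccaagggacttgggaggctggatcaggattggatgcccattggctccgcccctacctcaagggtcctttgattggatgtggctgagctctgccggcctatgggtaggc
The half-site, 10 letters that read the same on both strands, was found in 2 of 35 promoters of the 32 members that have one in the RefSeq table, at the second start of Polk (bases -231 to -222) and in Fanca (bases -64 to -55). That is 5.71% of the members' promoters, against 7.13% of all 32851 promoters. A full site, a pair of half-sites at most 13 bases apart, was in 0 of 35 and in 0.0639% of all. A match of letters is a description of the sequence, and no match says only that these letters are not in this window.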

How the data were processed

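Each mouse's whole-blood RNA was read on 1 one-colour Agilent array. The deposited scanner tables give a processed signal per spot, a linear intensity that is background-subtracted and not normalized between arrays, per the file headers. The submitters' processing notes name Agilent Feature Extraction 12.0.2, whereas the headers name 11.5.1.1. The authors also deposited log2 values in a series matrix; 98.1 to 99.1% of them per array lay within 0.01 of the log2 signal plus a constant, so scale and direction are known while the choice of constant is not, and they were used as an alternative. The column medians ran from 5.51 to 6.44.

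Control spots and outlier spots (125 to 324 per array) were left out, replicate spots were averaged on the log2 scale, and saturated spots, at most 3 on an array, stayed in. The scale of an array was its 75th percentile over the 5831 probes well above background on all 32 arrays, because under 50% of the probes were detected on 28 arrays and the percentile over all probes then lies near background (17.1 to 232 signal units). Probes had to be well above background on 4 or more arrays of some group (18367 of 39429 were), and the brightest such probe on average stood for its gene. Probes of the members were found by the gene name in the files. Other probes were named through the RefSeq table by accession (27454), symbol (3540) or synonym (404), and 7973 kept the file's name. One limma 3.58.1 fit (R 4.3.3) of the 6 group means gave 7 comparisons, and p-values were adjusted by Benjamini and Hochberg over 15159 genes. The test was checked on simulated data for the WT comparison: of 100 genes with a log2 change of 1, 7 were recovered, and of 100 with a change of 2, 56, with 1 of the unchanged genes called. The simulated noise was independent between genes, few genes were changed and arrays had no shared shifts. Recovery and false calls in the data may therefore differ. The number of arrays limits the precision.

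Members given by mouse were those called, Atm and Prkdc, the 2 largest rises and falls in each irradiation comparison, the member of highest mean in each role, and those whose groups did not overlap. The members and the gene lists were chosen with earlier results of these data known. Probe coordinates are mm9, and promoters and names come from RefSeq tables of GRCm38.p6; no coordinates were converted, a list of further excision and translesion genes is not reported here, and exon positions of the probes were not analysed here. Alternatives were other scalings, normexp background correction (offset 50), the authors' values, filters, the mean of a gene's probes, slide, scan day and replicate blocks, array weights, array brightness as a covariate, and leaving out each array.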

Additional observations from a re-analysis of the deposited data

Results flagged for a closer look

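In 6 of 90 groups of 5 or 6 mice, taken over the 15 genes given by mouse, 1 mouse lay apart from the rest by Dixon's test at 95%, and chance alone flags about 1 group in 20. The array of Scid 0 Gy replicate 5, with the smallest share of probes above background in its group, gave 2 of them: Xrcc6 at -6.68, against -4.74 for the next mouse, where the probe was not well above background, and H2afx at -3.85, against -2.53 for the next. Xrcc6 was also high in Scid 3 Gy replicate 5, at -3.28, against -4.62 for the next mouse. Without Scid 0 Gy replicate 5 the log2 change of Xrcc6 in Scid mice was -0.02, against 0.44 with it. Wrn read -5.19 in Atm-/- 4 Gy replicate 6, against -7.10 for the next mouse, and was not well above background on that array, which had the lowest share of detected probes of all 32 (20.02%). Xpc read -3.88 in Atm-/- 0 Gy replicate 1, against -5.08 for the next, and Blm read -7.51 in WT 0 Gy replicate 4, against -6.60 for the next, where its probe was not well above background. The causes were not tested.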

How the results depend on the processing

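Polk and Dclre1c in WT mice kept their direction under every alternative that tested them except normexp background correction, where the log2 changes were -1.01 and -0.94. Under that correction 23 of 26 members changed sign in WT mice. It adds a constant of 50 to arrays whose 75th percentile of detected signals ran from 420.3 to 6011, and the cause of the reversal was not tested. The members called in WT mice numbered 1 with array medians, with quantile normalization and with brightness as a covariate (Polk each time), 1 of 24 with the authors' values (Dclre1c), 0 with normexp, 0 among probes detected on all arrays, where 1 member was tested, and 4 with array weights (with Nhej1 and Rbbp8). In Scid mice 2 members (Blm, and Polk at 1.06) were called with array weights and 1 (Rpa1) with the covariate. The Polk probe was well above background on 1 of 5 arrays in each Scid group. Leaving out 1 array gave 2 to 3 members in WT mice and 0 in Atm-/- and Scid mice.

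The number of genes called in WT mice, 1406 (787 higher), became 1092 (172 higher) with the percentile over all probes, 672 (148 higher) with array medians, 848 (210 higher) with quantile normalization, 323 (16 higher) with normexp, 848 (318 higher) of 30139 without the filter, 474 (110 higher) with slide and 901 (404 higher) with scan day as a block, 4589 (3448 higher) with array weights, 690 (264 higher) with the covariate, 1040 (433 higher) with the authors' values, 949 (394 higher) among probes detected on all arrays and 740 (281 higher) without the 4 arrays bright in liver transcripts. WT 8 Gy replicate 5 drops out of the slide and day blocks. In Atm-/- mice 108 (73 higher) became 36 (11 higher), 184 (14 higher), 52 (15 higher) and 0 with those scalings and normexp, 342 (38 higher) with the authors' values, 110 (38 higher) among probes detected on all arrays, 14 without the filter, 0 with slide or day, 516 (240 higher) with weights, 168 with the covariate and 43 without the liver arrays. In Scid mice 180 (24 higher) became 235 (1 higher) with array medians, 7 with normexp, 373 (8 higher) with the authors' values, 61 without the filter, 280 among probes detected on all arrays, 88 and 90 with slide and day, and 1278 (577 higher) with weights. Comparisons with no gene called gave 26 (Scid minus WT at 0 Gy) with weights, 38, 35 and 24 (Atm-/- response minus WT) with slide, day and weights, and 19 (Scid response minus WT) with weights.

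Leaving out 1 array at a time gave 841 to 2870 genes in WT mice, 5 to 254 in Atm-/- mice, 49 to 403 in Scid mice and 0 to 3 in Scid minus WT at 0 Gy. In WT mice the count moved by over 1.5 times without replicate 1 (849) or 4 (841) at 8 Gy, or without replicate 4 (877) or 5 (2870) at 0 Gy. In Scid mice 9 of the 10 arrays did, all except Scid 3 Gy replicate 1, and in Atm-/- mice every array of the comparison but Atm-/- 4 Gy replicate 2 did, as did Scid 0 Gy replicate 5 through the shared spread (223). The replicate numbers did not pair the mice (correlations of -0.73 to 0.35 between same-numbered mice). The replicate block left Polk at 1.52 and Dclre1c at 1.53, both called. Dimness limits the rest: 17 of 43 members could not be tested.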
